A study of Mus musculus with 2 samples.

Results

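Described here are 10 of the 32285 genes in the count matrices, genes that microglia are known for: C1qa, C1qb and C1qc, Trem2 and Tyrobp, Cx3cr1, P2ry12 and Csf1r, Tmem119 and Spp1. All 10 were found by symbol in both matrices, and each symbol matched 1 row. They were followed in immune cells, defined as barcodes with at least 3 UMIs summed over Fcer1g and Ctss, and in 4 reference classes of other brain cells. Cells came from wild-type mice, in 2 single-cell libraries that are replicates of the same group. Cells born on embryonic day 12 were dated with the thymidine analogue EdU, brains were taken on postnatal day 3, and the dissected pallia, the dorsal forebrain, were pooled; no treatment or control group was used and no strain is given. Live cells within the brightest 10% for EdU were sorted and captured with the 10x Genomics 3' v3.1 chemistry, so every share below is a share of sorted cells. The labels do not tie the libraries to separate animals, and a p-value here covers the spread of 2 libraries that may differ by technique alone. That spread is estimated over the immune and reference classes together and leaves out the spread between cells.

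Microglia are the resident macrophages of the brain. They arise from yolk sac progenitors, enter the brain in the embryo and divide there around birth. C1qa, C1qb and C1qc encode the chains of C1q, which starts the classical complement pathway and tags synapses and debris. TREM2 is a lipid-sensing receptor that signals through the adaptor DAP12, the product of Tyrobp. CX3CR1 binds fractalkine from neurons, P2RY12 senses ADP, and CSF1R binds CSF1 and IL-34 and keeps microglia alive. TMEM119 is a surface protein that appears as microglia mature, and Spp1 encodes the secreted protein osteopontin, made by a phagocytic microglial state of the early postnatal white matter. Macrophages at the borders of the brain (meninges, perivascular space, choroid plexus) share many of these genes and are told apart by Mrc1, Pf4 and Lyve1.

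Barcodes with at least 500 genes and at most 10% mitochondrial UMIs numbered 11228 in replicate 1 and 10965 in replicate 2, with a median of 7542.5 and 8523 UMIs. The immune gate took 169 of them (1.51%, 95% interval 1.29% to 1.75%) and 182 (1.66%, 1.43% to 1.92%). The mean was 1.58% ± 0.109 (SD, n = 2). Intervals of shares are exact Clopper-Pearson intervals and those of counts exact Poisson intervals, and they cover counting error only. The gate left a gap: no barcode stood at exactly 3 UMIs in either library, 6 and 4 stood at exactly 2, and 152 and 168 had at least 20. The 6 immune markers kept for checking, among them Laptm5, Ptprc and Spi1, were highest in the immune cells in both libraries. The reference classes held 3999 and 4024 cells like oligodendrocyte precursors (OPC-like), 1969 and 1952 astroglia-like, 836 and 900 glutamatergic neuron-like and 944 and 991 GABAergic neuron-like cells. Their own check markers were highest where they should be, but for Apoe, an astroglial marker that stood higher in immune cells. Of the immune cells, 30 and 29 also passed a reference gate, and 21 and 17 of these were marked as doublets by Scrublet, which was used as an alternative only. The libraries shared 40 barcode sequences, of which 1 was an immune cell in either library.

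The label of microglial genes does not hold for all of these cells. At least 1 UMI of Mrc1 or Pf4 was found in 155 of 169 immune cells (91.7%) and in 163 of 182 (89.6%), mostly at a low level. In 27 and 20 cells the summed Mrc1 and Pf4 reached 40 per 10000 UMIs, a bound chosen after the values were seen, with 7 and 4 cells near it, between 32 and 50. These cells are written as Mrc1 Pf4-rich below. They held Lyve1, a receptor of border macrophages, at 1958 and 2176 CPM (counts per 1e6 UMIs of the class). The cells with Mrc1 or Pf4 under the bound, 128 and 143 or 75.7% and 78.6% of immune cells, held it at 14.1 and 9.79 CPM. Siglech, a lectin and microglial marker, ran the other way, at 7.65 and 18.3 CPM against 109 and 143 CPM. A further 7 and 16 immune cells had at least 3 UMIs over a list of genes of other blood cells (S100a8, S100a9, Plac8, Ly6c2, Ccr2 and others). The gated cells are therefore called immune cells, not microglia.

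All 10 genes were far higher in immune cells than in the mean of the 4 reference classes, and no gene had a library that went against this. In that comparison 66.0% of the 14796 genes tested were called, 32.4% higher and 33.6% lower in immune cells, and since the 10 genes are near 0 in the reference classes and passed the filter on low counts through the immune cells, their calls are no support of their own. The log2 fold changes ran from 9.55 ± 0.12 (SE) for P2ry12 to 12.13 ± 0.05 for Tyrobp, against a median of -0.12 over all genes tested. Both had an adjusted p far under 0.05 (4.1e-28 and 5.6e-38, edgeR's quasi-likelihood test with Benjamini-Hochberg adjustment on sums per library and class). Counts near the 3' end do not allow levels of different genes to be ranked, so each gene is compared only with itself.

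**Figure D1:**
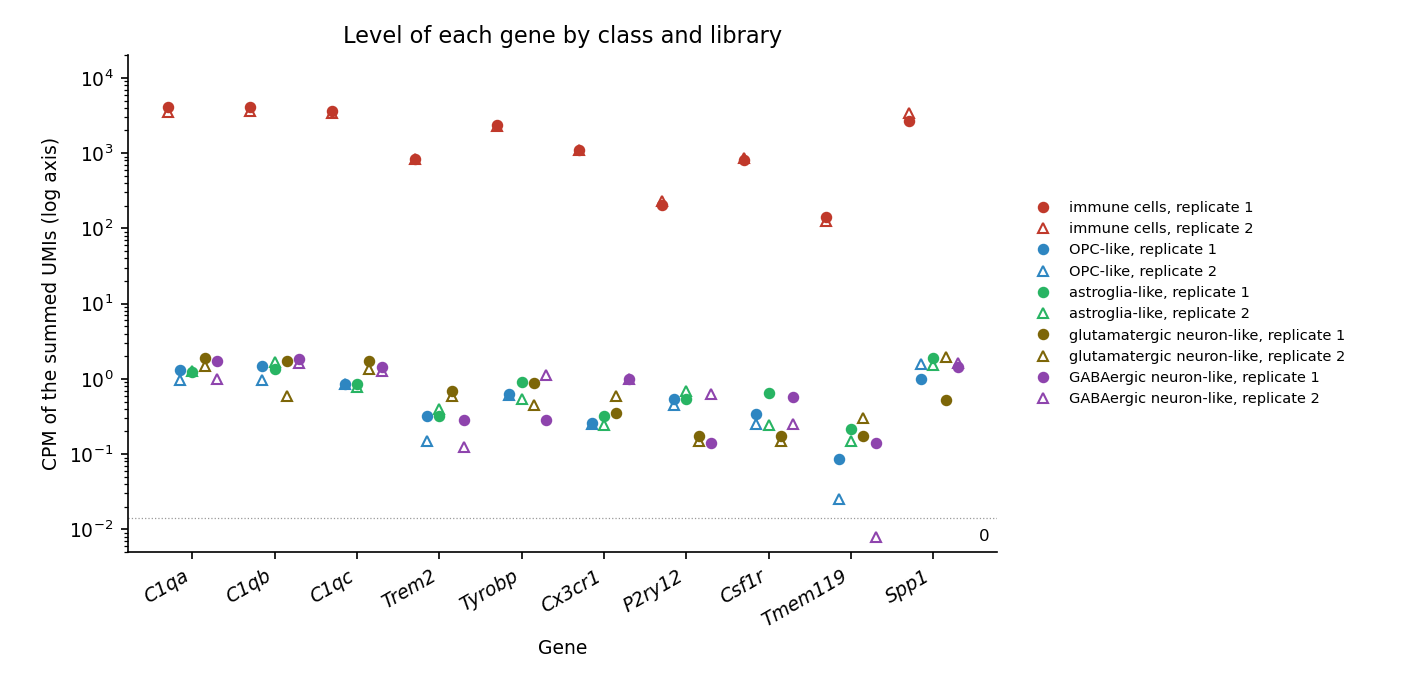
Level of each of the 10 genes in CPM (log axis; exact zeros are drawn under the dotted line) in immune cells and in the 4 reference classes; filled circles are replicate 1 and open triangles replicate 2. Immune cells stand above all reference classes for every gene, and the libraries lie close together in immune cells.

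The C1q chains were close between libraries. C1qa stood at 4096 CPM in replicate 1 and 3542 in replicate 2 in immune cells. C1qb stood at 4054 and 3666 CPM, and C1qc at 3616 and 3389 CPM. All 3 were lower in replicate 2, also among cells with Mrc1 or Pf4 alone (C1qa 4189 and 3742 CPM, C1qb 4119 and 3859, C1qc 3691.5 and 3578). Replicate 2 also held more of the other blood cells, whose part in this was not tested. With those cells left out of thinned libraries (each cell drawn down to 2000 UMIs, shallower cells dropped), 95.5% and 96.4% of immune cells held at least 5 of the 10 genes. After thinning, all 3 chains were detected together in 154 of 163 immune cells (94.5%, 89.8% to 97.4%) and in 164 of 181 (90.6%, 85.4% to 94.4%). No OPC-like cell did so, of 3731 and 3828.

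The genes of the C1q chains lie side by side on chromosome 4 (GRCm38), all on the minus strand: C1qb at chr4:136880129-136886187, C1qc at chr4:136889804-136893065 and C1qa at chr4:136895917-136898803. Across immune cells without other blood cells, the levels of the 3 chains went together more closely than any other pair of the 10 genes. Spearman's rho was 0.77 in replicate 1 (162 cells) and 0.73 in replicate 2 (166 cells) for C1qa and C1qb, 0.75 and 0.70 for C1qa and C1qc, and 0.77 and 0.71 for C1qb and C1qc. These coefficients describe cells of the same libraries that differ in depth, and carry no test. Counting error lowers them more for genes with few UMIs. In immune cells Tmem119 had 320 and 367 UMIs and C1qa 9321 and 10231, and the part of this in the order of the pairs was not tested. The RefSeq promoter windows (GRCm38.p6, 250 bases before to 50 after the start) of C1qb and C1qc are shown because these neighbours move together. Those of P2ry12 and Spp1, which hold the same match, are shown beside them. Capitals mark AGGAAGT, read on either strand (ACTTCCT on the other), a core bound by PU.1, the myeloid factor encoded by Spi1. Binding of PU.1 to these windows, and its part in the levels, was not tested.
C1qb promoter, chr4:136886151-136886450, minus strand: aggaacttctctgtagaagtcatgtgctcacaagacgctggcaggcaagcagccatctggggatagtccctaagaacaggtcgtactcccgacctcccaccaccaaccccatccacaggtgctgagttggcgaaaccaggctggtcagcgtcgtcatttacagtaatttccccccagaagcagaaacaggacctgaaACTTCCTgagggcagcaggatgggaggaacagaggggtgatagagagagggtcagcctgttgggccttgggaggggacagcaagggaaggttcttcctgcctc
C1qc promoter, chr4:136892865-136893164, minus strand: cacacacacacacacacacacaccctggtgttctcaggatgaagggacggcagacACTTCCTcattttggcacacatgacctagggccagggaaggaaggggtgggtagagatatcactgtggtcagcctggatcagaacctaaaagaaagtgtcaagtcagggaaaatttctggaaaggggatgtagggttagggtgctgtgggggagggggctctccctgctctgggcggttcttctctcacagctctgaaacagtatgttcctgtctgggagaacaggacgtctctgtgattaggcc
P2ry12 promoter, chr3:59262936-59263235, minus strand: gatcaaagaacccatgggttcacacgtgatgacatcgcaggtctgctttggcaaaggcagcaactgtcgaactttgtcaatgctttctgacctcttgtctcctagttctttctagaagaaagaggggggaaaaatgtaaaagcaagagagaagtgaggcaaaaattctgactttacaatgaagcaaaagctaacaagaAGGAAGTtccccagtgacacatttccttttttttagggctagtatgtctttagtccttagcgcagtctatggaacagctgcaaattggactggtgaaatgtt
Spp1 promoter, chr5:104434861-104435160, plus strand: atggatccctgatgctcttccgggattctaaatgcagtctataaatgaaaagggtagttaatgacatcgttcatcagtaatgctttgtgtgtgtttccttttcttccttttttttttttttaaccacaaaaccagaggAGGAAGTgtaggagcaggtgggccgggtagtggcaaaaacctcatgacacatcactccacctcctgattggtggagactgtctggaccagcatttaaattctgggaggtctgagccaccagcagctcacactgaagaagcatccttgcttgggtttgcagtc
The match lies 53 bases before the start in C1qb (-53), 195 before it in C1qc (-195), 52 in P2ry12 (-52) and 112 in Spp1 (-112). AGGAAGT was found in 9.35% of 32851 promoter windows, and in 4 of the 7 windows of the 6 matched genes. The longer GAGGAAGT was found in 3.20% of all windows, and in C1qc and Spp1 among these genes. A second window of Spp1 and those of Cx3cr1 and Trem2 held no match. C1qa, Tyrobp, Csf1r and Tmem119 were not matched to a window. Spi1 stood at 535 and 519 CPM in immune cells and at no more than 0.523 CPM in any reference class.

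Trem2 and its adaptor were present in most immune cells. Trem2 stood at 845 and 836 CPM, and Tyrobp at 2360 and 2280 CPM. Without thinning Tyrobp was found in more immune cells than any other of the 10 genes: every one of the 169 and 182 immune cells had a UMI, and 96.3% and 97.2% did after thinning. Trem2 was detected after thinning in 74.8% (67.5% to 81.3%) and 72.9% (65.8% to 79.3%), and nearly all of these cells, 122 of 122 in replicate 1 and 130 of 132 in replicate 2, also held Tyrobp. Tyrobp was also present in the other blood cells, which held little C1q and Trem2. In the 6 and 13 of them without Mrc1 and Pf4 it stood at 3593 and 2425 CPM, while C1qa stood at 119 and 13.7 CPM and Trem2 at 119 and 34.2 CPM.

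The chemokine, purine and growth factor receptors were stable between libraries as well. Cx3cr1 stood at 1114 and 1099 CPM in immune cells, and after thinning it was detected in 76.1% and 73.5% of them. P2ry12 stood at 203 and 230 CPM and was detected in 50 of 163 (30.7%, 23.7% to 38.4%) and 58 of 181 cells (25.3% to 39.4%). Csf1r stood at 812 and 867 CPM and was detected in 72.4% and 74.0%. Tmem119 stood at 141 and 127 CPM and was detected in 25.8% and 23.8%. Detection of these genes depends on depth: without thinning, P2ry12 was found in 82.2% and 79.1% of immune cells and Tmem119 in 59.8% and 62.6%. Among cells without other blood cells, Cx3cr1 went with Tmem119 (rho 0.47 and 0.34) and with P2ry12 (0.39 and 0.49), as a description.

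**Figure D2:**
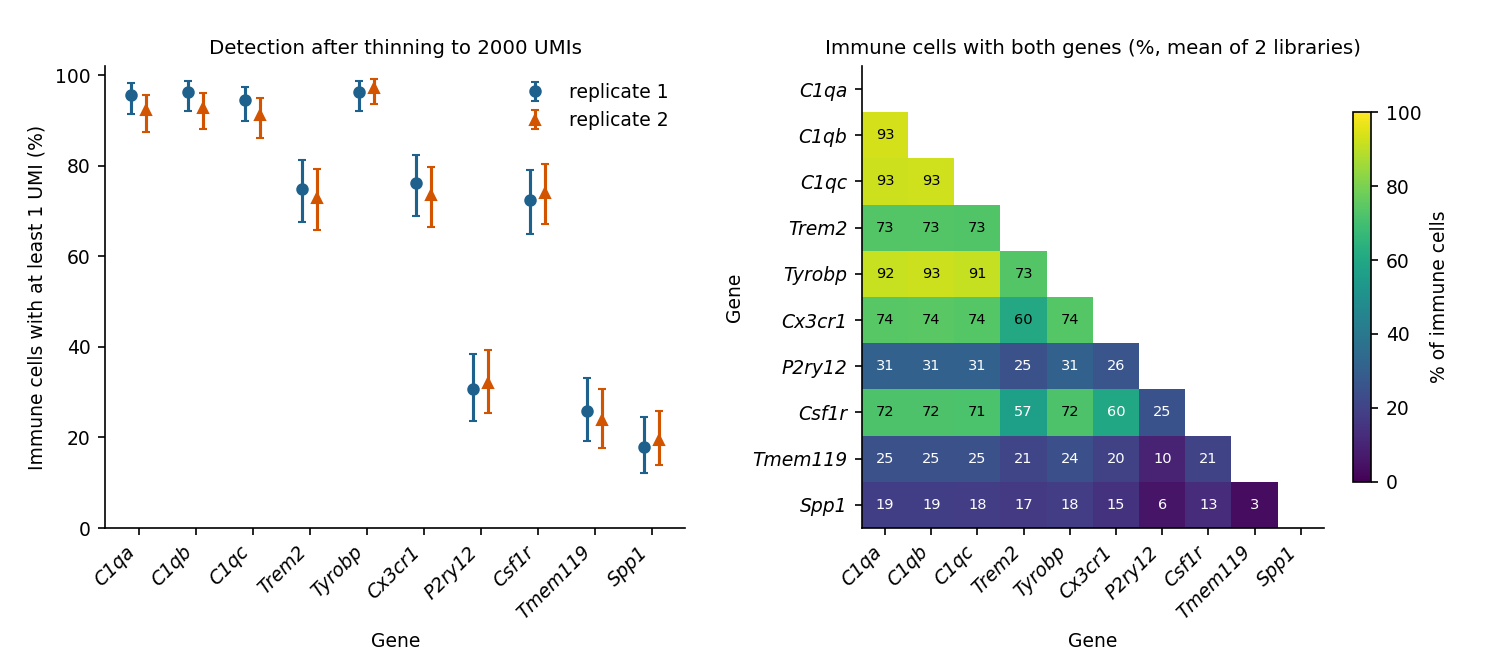
Left, share of immune cells with at least 1 UMI of each gene after thinning to 2000 UMIs, with exact 95% intervals, by library; right, share of immune cells with both genes of a pair, as the mean of the 2 libraries. C1q chains and Tyrobp were found together in most cells, and Tmem119 with Spp1 in 1.84% and 4.42% of cells.

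Most Spp1 UMIs were in few cells. It stood at 2700 and 3396 CPM in immune cells, yet was found in only 53 of 169 (31.4%) and 57 of 182 (31.3%). The tenth of immune cells with the most Spp1 UMIs, 17 and 18 cells, held 96.8% and 96.1% of them. The same share of cells held 18.4% and 18.3% of the C1qa UMIs. In the cell with the most, 1766 and 1660 UMIs were Spp1, and in 1 cell per library it reached 6.79% and 4.24% of all UMIs. Leaving out the single cell with the most Spp1 UMIs lowered the immune level to 1946 and 2862 CPM. At least 50 UMIs were found in 12 and 19 cells, so each level of Spp1 rests on few cells.

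The ligands and partners of these genes were seen in more than 1 class. Cx3cl1, which encodes fractalkine, stood at 20.5 and 21.1 CPM in OPC-like cells, and at 3.52 CPM or less in the other classes and in immune cells. Csf1 stood at 41.8 and 45.7 CPM in immune cells, 16.8 and 19.7 CPM in astroglia-like and 5.84 and 6.85 CPM in OPC-like cells. Il34, the other ligand of CSF1R, stood at 1.00 CPM or less in every class. Apoe, which encodes a lipid carrier bound by TREM2, stood at 21287 and 18007 CPM in immune cells and at 8526 and 7284 CPM in astroglia-like cells. C3, the complement component cleaved downstream of C1q, was at 0 UMIs in the immune cells of replicate 1 and at 7.62 CPM in replicate 2. Other blood cells were more frequent in replicate 2, and their part in this was not tested. C3ar1, the receptor of its fragment C3a, stood at 229 and 212 CPM. Itgam, a chain of complement receptor CR3, stood at 116 and 120 CPM in immune cells, and C4b, another complement component, at 12.2 and 11.9 CPM in astroglia-like cells.

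Outside immune cells, the 10 genes were found at a trace level. Summed over the 4 reference classes, C1qa had 91 and 82 UMIs, or 0.0336% (0.0270% to 0.0412%) and 0.0309% (0.0246% to 0.0384%) of its immune CPM. Tyrobp had 46 and 47 UMIs, 0.0295% and 0.0275%, and Spp1 had 83 and 120 UMIs, 0.0465% and 0.0472%. The median over the 10 genes was 0.0354%. P2ry12 stood apart, with 31 and 38 UMIs: 0.231% (0.157% to 0.328%) and 0.221% (0.157% to 0.304%), with intervals above those of 8 other genes in both libraries. Tmem119, at 9 and 6 UMIs (0.0967%, 0.0442% to 0.184%, and 0.0631%, 0.0232% to 0.137%), overlapped P2ry12 in replicate 1 and not in replicate 2. Most P2ry12 UMIs were in OPC-like (19 and 18) and astroglia-like cells (10 and 14). The gene P2ry12 lies at chr3:59216272-59262871 (GRCm38, minus strand) and overlaps exons of Med12l, which is on the other strand. Med12l stood at 15.5 and 17.9 CPM in OPC-like and 12.1 and 17.4 CPM in astroglia-like cells, and at 10.1 and 6.58 CPM in immune cells. The sources used here do not give whether counting used strand, and the part of Med12l in the P2ry12 counts was not tested.

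Among the reference classes the order of the levels was not stable. C1qa stood at 1.29 and 0.953 CPM in OPC-like, 1.23 and 1.28 CPM in astroglia-like, 11 and 10 UMIs (1.92 CPM in replicate 1) in glutamatergic and 1.71 and 1.01 CPM in GABAergic neuron-like cells. Ordered by their means, OPC-like, astroglia-like, GABAergic and glutamatergic neuron-like cells each overlap the next class in the range of their 2 libraries. Spp1 in OPC-like cells (1.01 and 1.58 CPM) was within the range of the other classes (0.523 to 1.95 CPM). After thinning, 97.9% to 98.9% of the cells of each reference class held none of the 10 genes, and no reference cell held more than 4. Of the immune cells, 1 per library held none, 0.613% and 0.552%, and the median was 7 genes in both libraries. The part of free RNA and of doublets in this trace level was not tested.

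**Figure D3:**
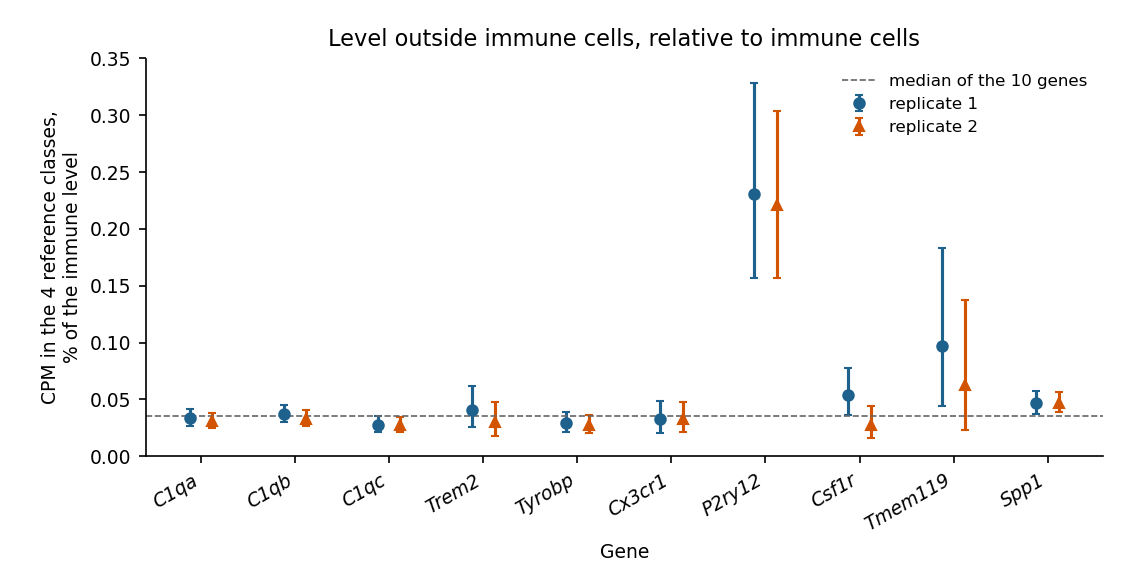
Level of each gene summed over the 4 reference classes as a percent of its level in immune cells, by library, with exact Poisson intervals; the dashed line is the median of the 10 genes. P2ry12 stands above the others in both libraries, and Tmem119 has wide intervals because it rests on 9 and 6 UMIs.

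Immune cells with a UMI of Mrc1 or Pf4 had more of 9 of the 10 genes than the 14 and 19 cells with none, and Tyrobp was the exception. In that comparison 6.87% of 14743 genes were called, 4.54% higher and 2.33% lower where Mrc1 or Pf4 was detected. C1qa stood at 4189 and 3742 CPM with Mrc1 or Pf4 and at 1984 and 1094 CPM without, a log2 fold change of 1.67 ± 0.09 (SE; edgeR, adjusted p = 2.4e-17). Cx3cr1 stood at 1148 and 1157 CPM against 336 and 389 CPM, a log2 fold change of 1.80 ± 0.11 (edgeR, adjusted p = 5.6e-15). The groups do not overlap between libraries for either gene, which is a description, as the share of all genes doing so was not counted. Tyrobp stood at 2320 and 2263 CPM against 3255 and 2490 CPM, with a log2 fold change of -0.09 ± 0.08 (edgeR, adjusted p = 0.59). It was called lower with RLE size factors in edgeR (-0.33, adjusted p = 0.0046) and with DESeq2 (-0.33, adjusted p = 0.0039). The other genes called higher ran from 0.85 ± 0.18 for Spp1 to 1.60 ± 0.09 for C1qc, against a median of 0.52 over all genes tested, which RLE scaling put at 0.29 and DESeq2 at 0.05. The call of Spp1 was lost without the replicate block (edgeR, adjusted p = 0.22) with RLE scaling (edgeR, adjusted p = 0.053) and with DESeq2 (adjusted p = 0.62), and DESeq2 also lost that of Tmem119 (adjusted p = 0.095). Over all genes, 670 were called higher and 343 lower, with RLE scaling 256 and 420, and with DESeq2 213 and 496.

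The cells without Mrc1 and Pf4 were a mixture. Of the 33, 19 had at least 3 UMIs of the other blood list, whose 10 genes summed to 10845 and 69534 CPM in the cells without Mrc1 and Pf4 and to 2.75 and 9.36 CPM in those with. S100a8, a neutrophil protein, stood at 13360 and 53843 CPM in those 19 cells and at 0 in the cells with Mrc1 or Pf4. The other 14 cells had C1qa at 4078 and 3286 CPM and Cx3cr1 at 713 and 901 CPM. With all other blood cells left out, an alternative chosen after seeing the data, 5 of the 10 genes were still called higher and none lower, where 2.47% of genes were called, 2.44% higher and 0.0342% lower. These were C1qa (log2 fold change 0.69), C1qb (0.47), C1qc (0.63), Cx3cr1 (1.05) and Csf1r (0.92). The median was 1.23 over all genes tested and 0.63 over genes of at least 50 CPM, so C1qb was under and C1qc at the latter. In CPM, C1qa differed little: 4078 and 3286 in the 14 cells above, against 4189 and 3742 in all cells with Mrc1 or Pf4. The part of scaling in these calls was not tested. The fit without other blood cells rests on 8 and 6 cells without Mrc1 and Pf4, with a median of 2373.5 and 10195.5 UMIs. When the split was made on thinned cells, 120 in each library had Mrc1 or Pf4 and 43 and 61 had not. There C1qa, C1qb, C1qc, Cx3cr1 and Csf1r were called higher and Spp1 lower (log2 fold change -1.69, edgeR, adjusted p = 3.6e-06).

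The Mrc1 Pf4-rich cells held the C1q chains and Csf1r and had little Spp1. These levels are a description without a test, since the cells were picked by their values. C1qa stood at 4810 and 4540 CPM in the 27 and 20 rich cells, against 4104 and 3671 CPM in the 128 and 143 cells with less Mrc1 and Pf4. C1qb stood at 4095 and 4031 CPM against 4123 and 3844 CPM, which overlap, and C1qc at 3977 and 4375 CPM against 3653 and 3507 CPM. Csf1r stood at 960 and 1402 CPM against 810 and 866 CPM. Spp1 had 3 UMIs and 1 UMI in all of the rich cells, or 11.5 and 4.58 CPM, against 3179 and 3732 CPM. Tmem119 stood at 19.1 and 82.5 CPM against 160 and 139 CPM, Trem2 at 379 and 508 CPM against 933 and 901 CPM, and P2ry12 at 103 and 151 CPM against 220 and 247 CPM. Cx3cr1 stood at 551 and 925 CPM against 1230 and 1178 CPM. The libraries do not overlap between these groups for the genes listed but C1qb, and Tyrobp is not listed. The share of all genes without such overlap was not counted, so this is no support. The spread among the rich cells of replicate 1 and 2 is wide for Tmem119 and Cx3cr1.

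**Figure D4:**
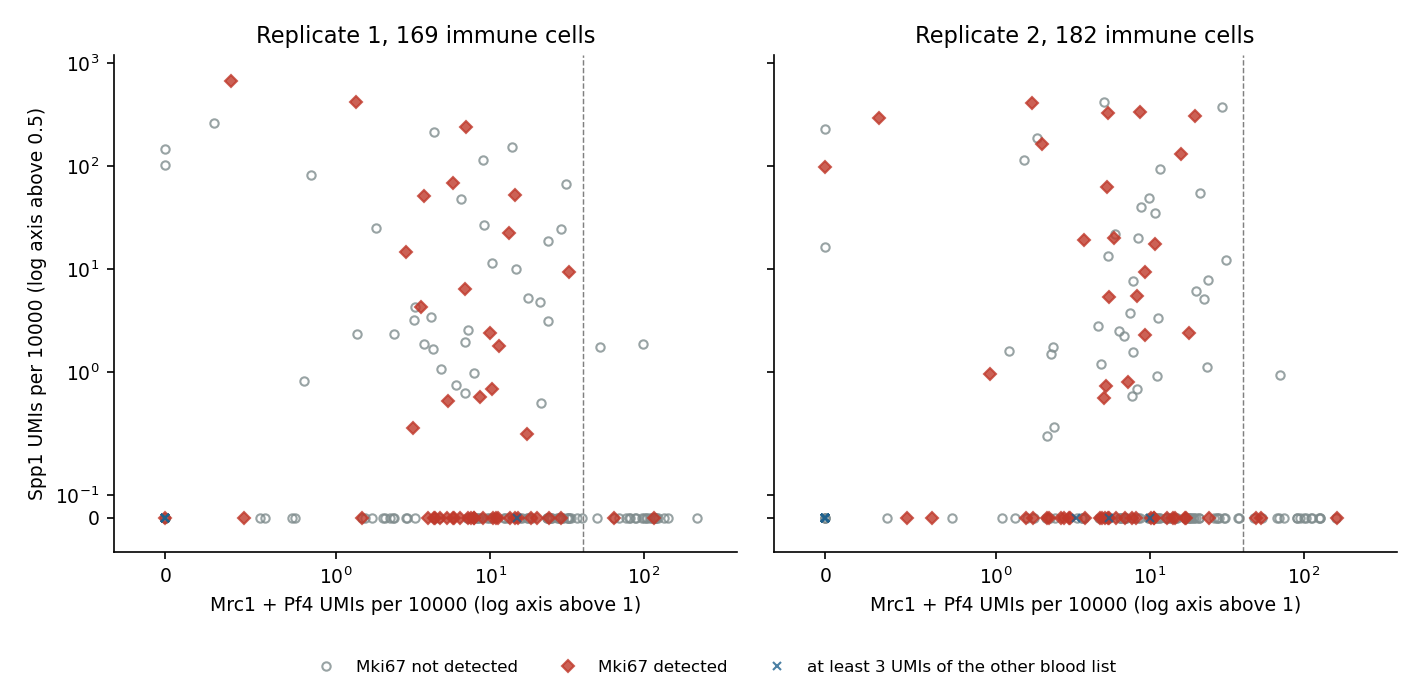
Each immune cell of replicate 1 (left, 169 cells) and replicate 2 (right, 182 cells), by its Mrc1 and Pf4 UMIs per 10000 (horizontal, log axis above 1) and its Spp1 UMIs per 10000 (vertical, log axis above 0.5); the dashed line is at 40 per 10000. To the right of the line 2 and 1 cells had a UMI of Spp1, and the cells with most Spp1 lie to its left, with and without Mki67.

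Mki67, a protein of dividing cells, was detected in 48 of 169 immune cells (28.4%, 21.7% to 35.8%) and in 54 of 182 (29.7%, 23.1% to 36.9%). Cells with Mki67 had less of the C1q chains, Tyrobp and Csf1r, and more Spp1. In that comparison 4.42% of 14774 genes were called, 2.44% higher and 1.98% lower, and of the 10 genes 1 was called higher and 5 lower. C1qa stood at 3517 and 3285 CPM with Mki67 and at 4443 and 3672 CPM without, a log2 fold change of -0.35 ± 0.07 (edgeR, adjusted p = 6.0e-04). Tyrobp stood at 1962 and 2079 CPM against 2597 and 2382 CPM, and fell by 0.40 ± 0.07 on the log2 scale (edgeR, adjusted p = 2.6e-04). C1qb (-0.29), C1qc (-0.24) and Csf1r (-0.26) were called as well, but C1qc was not lower in replicate 2, with 3406 against 3380 CPM. Trem2 stood at 857 and 868 CPM with Mki67 and at 838 and 820 CPM without, and did not pass (edgeR, adjusted p = 0.85). Cx3cr1, P2ry12 and Tmem119 did not pass either, with log2 fold changes of -0.16, -0.23 and 0.03. All 5 lower calls were lost without the replicate block, when C1qa had an adjusted p of 0.13 (edgeR), and DESeq2 kept only Tyrobp. Without other blood cells, where 3.64% of genes were called, 2.20% higher and 1.44% lower, again 1 of the 10 genes was higher and 5 lower.

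Spp1 stood at 4658 and 5844 CPM in the cells with Mki67 and at 1530 and 2151 CPM in those without. The log2 fold change was 1.42 ± 0.06 (edgeR, adjusted p = 2.5e-16), an SE and p-value that leave out the spread between cells. The cell with the most Spp1 UMIs had Mki67 in both libraries, and without it the level with Mki67 was 2664 and 4320 CPM. Spp1 was found in 18 of 48 and 21 of 54 cells with Mki67 (37.5%, 24.0% to 52.6%, and 38.9%, 25.9% to 53.1%). Without Mki67 it was found in 35 of 121 and 36 of 128 (28.9%, 21.0% to 37.9%, and 28.1%, 20.5% to 36.8%), so the intervals overlap. Cells with Mki67 were deeper, and after thinning to 2000 UMIs Spp1 was found in 1 of 23 cells with Mki67 (4.35%, 0.11% to 21.9%) and 28 of 140 without (13.7% to 27.6%) in replicate 1. In replicate 2 it was found in 5 of 24 (20.8%, 7.13% to 42.2%) and 30 of 157 (19.1%, 13.3% to 26.1%), so no higher share with Mki67 was seen in replicate 1 and the intervals overlap in both. Of the cells with at least 50 Spp1 UMIs, 6 of 12 and 9 of 19 had Mki67. When cells were split on thinned counts, 23 and 24 had Mki67, and the log2 fold change of Spp1 was -0.65 (edgeR, adjusted p = 0.46). Among cells without Mrc1 and Pf4 it was -1.21 (edgeR, adjusted p = 0.0060), from 2 cells with Mki67 in each library. The higher level therefore rests on few cells.

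Depth and other genes moved with Mki67. The median was 16972 and 17348.5 UMIs in cells with Mki67 and 11463 and 13841.5 in those without. Of 12 other genes of division, 10 were higher and none lower, with Top2a, which untangles DNA, at a log2 fold change of 3.78. Of 14 border macrophage genes, 11 were lower and none higher, with Lyve1 at -2.89, and 10 were lower without other blood cells. Of 15 homeostatic microglial genes, 2 were lower and none higher, Cst3 (-0.28) and Ltc4s (-0.36). Of 14 genes that respond to dissociation, 8 were lower and none higher. Their medians were 2.44, -1.35, -0.21 and -0.44, against -0.10 over all genes tested, of which 2.44% were called higher and 1.98% lower. The lists were chosen with earlier results of these data known, so these counts are a description. In cells with Mrc1 or Pf4 under the bound alone, C1qa stood at 3568 and 3327 CPM with Mki67 and at 4486 and 3871 CPM without, Tyrobp at 1996 and 1996 CPM against 2589 and 2348 CPM, and Spp1 at 4964 and 6211 CPM against 1906 and 2291 CPM. In the same cells C1qb stood at 3550 and 3658 CPM against 4531 and 3951 CPM, C1qc at 3213 and 3449 CPM against 3966 and 3541 CPM, and Csf1r at 731 and 824 CPM against 866 and 891 CPM. These values carry no test, and the part of depth was not tested.

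Cells with and without Spp1 were compared for the other 9 genes. Trem2 was higher with Spp1, while Tmem119 and Csf1r were lower. Of 14774 genes tested, 2.23% were called, 0.954% higher and 1.27% lower. Of the 27 and 20 Mrc1 Pf4-rich cells, 2 and 1 had Spp1, so the group without Spp1 held nearly all of them. Against the cells under the bound, these rich cells had less Trem2 and Tmem119 and more Csf1r. Their part in the calls was not tested. Trem2 stood at 1035 and 1135 CPM in the 53 and 57 cells with Spp1 and at 735 and 666 CPM in the 116 and 125 cells without, a log2 fold change of 0.62 ± 0.07 (edgeR, adjusted p = 6.2e-08). Tmem119 stood at 105 and 80.9 CPM against 161 and 153 CPM, and fell by 0.79 ± 0.16 on the log2 scale (edgeR, adjusted p = 0.0025). The groups do not overlap for either gene, though the share of all genes doing so was not counted. Both calls were kept without the replicate block. Csf1r stood at 760 and 725 CPM against 842 and 948 CPM (-0.29 ± 0.07, edgeR, adjusted p = 0.019), and C1qc at 3885 and 3763 CPM against 3460 and 3175 CPM (0.19 ± 0.05, edgeR, adjusted p = 0.020). Both calls were lost without the replicate block, and that of C1qc also without other blood cells, where 1.68% of genes were called, 0.892% higher and 0.789% lower. P2ry12 stood at 175 and 188 CPM against 218 and 254 CPM and just missed the threshold (-0.40 ± 0.11, edgeR, adjusted p = 0.055). It passed without other blood cells (-0.50, edgeR, adjusted p = 0.015), and also with no filter, with up to 5% mitochondrial UMIs, without cells passing a reference gate, with a split at 2 UMIs and with the thinned split, where adjusted p ran from 0.00066 to 0.040 (edgeR). Over all genes, 141 were called higher and 188 lower, with RLE scaling 207 and 140, and with DESeq2 225 and 120. C1qa, C1qb, Tyrobp and Cx3cr1 had log2 fold changes of 0.10, 0.14, 0.11 and -0.01 and did not pass.

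**Figure D5:**
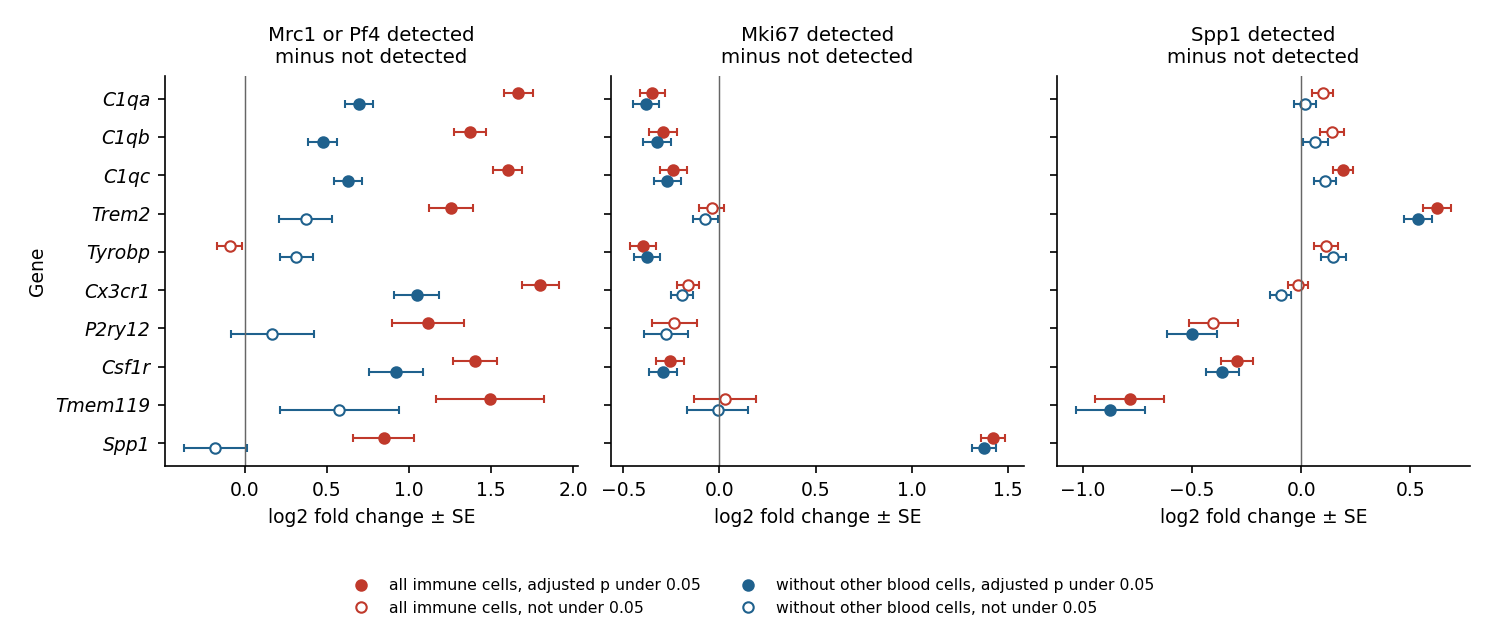
Log2 fold change ± SE of each gene in the 3 comparisons within immune cells (edgeR), for all immune cells and without other blood cells; filled points have an adjusted p under 0.05. Leaving out other blood cells moved the values of the Mrc1 or Pf4 comparison most, and those of the Mki67 and Spp1 comparisons little; Spp1 has no point in its own comparison.

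Genes of the developmental Spp1 state went with Spp1. Of 14 listed, 11 were higher in cells with Spp1 and none lower (edgeR, adjusted p under 0.05). Over all genes tested, 0.954% were higher and 1.27% lower. The median log2 fold change was 0.98 against -0.06 over all genes tested. The lists were chosen with earlier results of these data known, so these counts are a description and no support. Gpnmb, a lysosomal membrane glycoprotein, stood at 120 and 254 CPM with Spp1 and 0.694 and 3.81 CPM without, Fabp5, a fatty acid binding protein, at 1496 ± 155 and 285 ± 56.6 CPM (SD, n = 2), and Igf1, a growth factor, at 280 ± 73.2 and 68.5 ± 23.8 CPM. Itgax, Lgals1 and Plaur of that list did not pass. Of 14 border macrophage genes 10 were lower and none higher. Of 12 genes of division, 0 were higher with Spp1 and 2 lower, with a median log2 fold change of -0.46. The lower ones were Mcm6 (-0.77, edgeR, adjusted p = 0.019) and Pcna (-0.48, edgeR, adjusted p = 0.048), and without other blood cells 1 was lower. The 10 genes of other blood cells summed to 0 and 5.71 CPM with Spp1 and at 721 and 8276 CPM without. Median UMIs per cell were 15677 and 17024 with Spp1 and 12087 and 14140 without; the part of depth was not tested.

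The genes with the most similar pattern were sought over 12 sums, of immune cells with and without Mrc1 or Pf4 and of the 4 reference classes in both libraries, by Pearson's r of log2(CPM + 1) among 6021 genes. All first-ranked genes reached r of 0.998 or more, as immune and reference sums fall into separate clusters, so these names describe that split. C1qa was nearest to Ighm, C1qb to Aif1 and C1qc to Cd84. Trem2 was nearest to Ccl3, Tyrobp to Spi1, Cx3cr1 to P2ry13, P2ry12 to Cyth4, Csf1r to Ly86, Tmem119 to Vav1 and Spp1 to Tlr13.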

How the data were processed

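Single-cell 3' libraries of 2 samples of 1 group were used. The deposited matrices hold UMI counts per gene and barcode, made by the authors with Cell Ranger 6.0.2 per the file headers. Seurat 4.1.0, R 4.1.0 and the build mm10 also stand in the submitters' processing notes, which state no role for them. The matrices held 13858 and 14513 barcodes with 97091962 and 108903409 UMIs. Barcodes under 500 genes (441 and 657) or over 10% mitochondrial UMIs (2189 and 2891) were left out, and doublets were kept, with Scrublet (829 and 808 marked) as an alternative.

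Classes were gated on UMI sums of at least 3. A reference class held barcodes that passed its gate and no other: Pdgfra, Cspg4 and Sox10 for OPC-like, Aqp4, Gja1 and Aldh1l1 for astroglia-like, Neurod2, Neurod6 and Slc17a7 for glutamatergic and Gad1, Gad2 and Dlx5 for GABAergic neuron-like cells. Sums of counts over the cells of a class in a library were tested with edgeR 4.0.16 (quasi-likelihood, TMM, filterByExpr, library as a block, Benjamini-Hochberg over all genes tested, threshold 0.05) in R 4.3.3. The block pairs groups taken from the same library. Each fit held the 4 reference classes beside the immune cells, and all classes shared an estimate of the spread. Spread between cells within a class does not enter it. Groups split by detection of 1 UMI also differ in depth, and the gene that makes a split is no result of it. Detection is given after thinning each cell to 2000 UMIs, and without thinning where the text says so or gives counts out of all 169 and 182 immune cells or their splits. DESeq2 1.42.0, RLE factors, other gates and thinned splits were alternatives. Python 3.11.15 with scanpy 1.11.5 and scipy 1.17.1 was used for the rest.

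The 10 genes and the gene lists were chosen with earlier results of these data known. Named were the 10 genes, genes of the lists, and, for each comparison within immune cells, up to 10 higher and 10 lower other genes with the largest log2 fold change among those called, with the same direction in both libraries and at least 50 CPM in the higher group. On simulated counts, 2-fold and 4-fold changes were recovered in 91% and 97% of changed genes for immune against reference classes, 15% and 53% for Mrc1 or Pf4, 63% and 94% for Mki67 and 65% and 90% for Spp1.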

Additional observations from a re-analysis of the deposited data

How the results depend on the processing

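Immune cells against the reference classes gave 10 of the 10 genes higher under all alternatives run. There 110 of 110 values kept their direction and, where a test was made, their call. For Mrc1 or Pf4, 112 of 130 values of single genes did so, for Mki67 114 of 140 and for Spp1 100 of 126. Leaving out other blood cells was chosen after seeing the data, the other alternatives were not. Few cells without Mrc1 and Pf4 (14 and 19) and the shallow counts of P2ry12 and Tmem119 limit these comparisons. With 1 library left out no test could be made, and values are ratios of the library that was kept.

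For Mrc1 or Pf4, 361 genes were called without other blood cells and 415 with the split on thinned cells, against 1013, and 5 of the 10 genes were higher in either. Of the 10 genes, 1 was lower with RLE scaling, 1 with DESeq2 and 1 with the thinned split, against 0. Tyrobp turned to 0.31 without other blood cells, 0.036 without cells passing a reference gate, 0.10 without Scrublet-marked cells and 0.039 with the thinned split. Spp1 turned to -0.18 without other blood cells and -1.69 with the thinned split. The cause was not tested.

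For Mki67, 410 genes were called without the replicate block and 163 among cells without Mrc1 and Pf4, against 653. Of the 10 genes, 0 were higher among cells without Mrc1 and Pf4 and 0 with the thinned split. Lower were 0 without the replicate block, 1 with DESeq2 and 3 among cells without Mrc1 and Pf4. Spp1 turned to -1.21 and -0.65 in the latter cells and the thinned split. Tmem119 turned to -0.010 without other blood cells, -0.033 without cells passing a reference gate and -0.035 with a split at 2 UMIs. With 1 library left out, C1qc ranged from -0.30 to 0.011, Trem2 from 0.032 to 0.082, Cx3cr1 up to 0.062 and Tmem119 down to -0.072.

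For Spp1, 505 genes were called with no filter, 172 without the replicate block and 610 with the thinned split, against 329. Higher were 1 of 9 genes without the replicate block, 1 among cells without Mrc1 and Pf4, 1 without other blood cells and 4 without Scrublet-marked cells. Lower were 1 each with RLE scaling, without the replicate block, with DESeq2 and among cells without Mrc1 and Pf4. Lower were 3 with no filter, with up to 5% mitochondrial UMIs, without other blood cells, without cells passing a reference gate, with a split at 2 UMIs and with the thinned split, P2ry12 among them. Among cells without Mrc1 and Pf4, C1qa turned to -0.16 and Tyrobp to -0.59. Cx3cr1, near 0 throughout, turned to 0.034 with RLE scaling, 0.00068 with no filter, 0.039 with DESeq2 and 0.049 without Scrublet-marked cells, and ranged from -0.060 to 0.082 with 1 library left out. Without the block, immune against reference classes gave 9489 genes and Mrc1 or Pf4 847.

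The immune share was 1.96% with up to 5% mitochondrial UMIs, 1.46% without Scrublet-marked barcodes and 1.32% without cells passing a reference gate, and 1.51% and 1.66% in single libraries. The background median was 0.0319% and 0.0392% in single libraries.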

Other observations

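Outside the genes and lists described, cells with Spp1 had higher levels of several genes that are named by the size of their change. Ctsd, a lysosomal protease, stood at 2816 and 3714 CPM with Spp1 and at 1297 and 1489 CPM without, a log2 fold change of 1.21 ± 0.07 (edgeR, adjusted p = 5.1e-14). Apoc1, an apolipoprotein, stood at 240 and 224 CPM against 70.1 and 93.6 CPM, and Slc16a3, a lactate transporter, at 55.2 and 62.8 CPM against 13.2 and 16.9 CPM. Fcna, a ficolin of the lectin complement pathway, was lower with Spp1, at 13.2 and 19.99 CPM against 287 and 109 CPM, a much larger gap in replicate 1 than in replicate 2. It was also lower with Mki67, at 18.8 and 50.3 CPM against 286 and 89.9 CPM. S100a6, a calcium-binding protein, was called lower with Spp1 and with Mki67, but without other blood cells it did not pass (edgeR, adjusted p = 0.80 and 0.74).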
